A study of Mus musculus with 2 samples.

Results

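Mapkapk2, Map4k4, Stk17b, Ptp4a1, Rgs20 and Arhgef4 are 6 signalling genes that were chosen by name for their roles as kinases, a phosphatase and G-protein regulators, out of 1068 genes analysed here. They were followed in LβT2 cells, an immortalised mouse line with features of the pituitary gonadotrope, grown to passage 15 and exposed for 40 min to vehicle or to 2 nM gonadotropin-releasing hormone (GnRH). Each treatment was 1 droplet single-cell RNA-seq library, with about 8000 cells loaded, and the number of cultures behind it is not given. The values below therefore carry counting error only, and no test of the treatment was possible. The analysed genes are the first 1068 of the 27998 genes in the series' gene list (3.81%), of which 1062 lie on chromosome 1, and all levels are counts of unique molecular identifiers (UMIs) scaled to a library total of 1000000 UMIs of these genes (CPM), not of the whole transcriptome.

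GnRH binds a receptor on the gonadotrope that couples to heterotrimeric G proteins, and the signal runs through phospholipase C, calcium, protein kinase C and the mitogen-activated protein kinase (MAPK) cascades to the immediate early genes. Kinases add phosphate to proteins and phosphatases remove it, whereas RGS proteins speed the return of G-protein alpha subunits to their inactive state and guanine nucleotide exchange factors switch small GTPases on. Most of this control acts on the proteins, and transcripts report only on their supply.

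The vehicle library held 1992 cells and 1126320 UMIs (median 543.5 per cell), and the GnRH library 1889 cells and 1118763 UMIs (median 561 per cell). Btg2, an immediate early gene used here to check the treatment labels, went from 1049 UMIs without GnRH to 33510 with it, a ratio of 32.2. Of the 9 gonadotrope markers listed for a check of the cell type, 0 are among the analysed genes, so the cell type was not checked here. The cells carry running numbers in place of barcodes, so barcodes shared by the libraries were not counted.

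The promoters of Ptp4a1 and Arhgef4, the members with the highest and lowest ratio between the libraries among those with at least 100 UMIs, and of Stk17b, which varied most across cells ranked by G2/M genes, are shown first. The sequences are from RefSeq (GRCm38.p6), run 5′ to 3′ on the gene's strand from 250 bases before to 50 bases after the start site, and carry capitals where a searched motif matched. They cover chr1:30949706-30950005 (minus strand) for Ptp4a1, chr1:53785166-53785465 (minus strand) for Stk17b and chr1:34677932-34678231 (plus strand) for the first of 2 Arhgef4 start sites. The Ptp4a1 window lies wholly upstream of the counted gene model, which starts at 30949309. It takes in the start, at 30949770, of a second model of the same name that is not in the series' gene list.
Ptp4a1: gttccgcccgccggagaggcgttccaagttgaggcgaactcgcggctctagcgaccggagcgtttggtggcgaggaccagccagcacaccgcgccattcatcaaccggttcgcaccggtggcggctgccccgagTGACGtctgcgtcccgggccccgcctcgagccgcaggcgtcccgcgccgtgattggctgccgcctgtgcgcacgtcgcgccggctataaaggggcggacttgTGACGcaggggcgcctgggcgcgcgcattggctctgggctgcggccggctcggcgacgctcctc
Stk17b: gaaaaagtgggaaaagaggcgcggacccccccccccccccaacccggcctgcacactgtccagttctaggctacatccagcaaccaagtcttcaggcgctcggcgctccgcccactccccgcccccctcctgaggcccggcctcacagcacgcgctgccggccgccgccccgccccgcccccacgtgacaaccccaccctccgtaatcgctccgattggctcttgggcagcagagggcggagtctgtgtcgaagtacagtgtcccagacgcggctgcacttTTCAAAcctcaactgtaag
Arhgef4: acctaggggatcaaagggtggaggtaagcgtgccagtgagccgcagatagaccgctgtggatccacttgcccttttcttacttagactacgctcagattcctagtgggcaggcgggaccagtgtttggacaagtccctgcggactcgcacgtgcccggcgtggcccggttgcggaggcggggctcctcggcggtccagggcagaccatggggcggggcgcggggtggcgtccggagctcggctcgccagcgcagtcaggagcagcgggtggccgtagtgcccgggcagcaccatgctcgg

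A set of 6 motifs was searched on both strands in these windows and in the windows of Mapkapk2 and of the second Arhgef4 start, and no window was held for Map4k4 or Rgs20. They were the cAMP response element (TGACGTCA), its half-site (TGACG, contained in the full element), the AP-1 site (TGANTCA), an EGR site (GCGNGGGCG), the serum response CArG box and the cell cycle homology region (CHR, TTTGAA). The Ptp4a1 window held the half-site at positions -116 and -14 from the RefSeq start, both in capitals above, and Mapkapk2 held it at position 11. For Ptp4a1 this start is not that of the counted gene model. This half-site occurs in 20.8% of 32851 RefSeq promoter windows of the same length. Stk17b held a CHR match on the opposite strand at position 32, in capitals above, and Mapkapk2 held one at -229, against 17.9% of all windows. Neither Arhgef4 window held a match to any of the 6 motifs. The full cAMP response element, the AP-1 site, the EGR site and the CArG box matched in 1.79%, 7.81%, 5.55% and 1.63% of all windows and in none of the members' 5. These matches describe letters only.

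In unstimulated cells the members spanned more than 2 orders of magnitude in level. Map4k4 (ENSMUSG00000026074), a kinase of the Ste20 family that can act upstream of the JNK pathway, was the most abundant with 3275 UMIs, or 2908 CPM (95% Poisson interval 2809 to 3009). Mapkapk2 (ENSMUSG00000016528), the kinase activated by p38 MAPK, followed at 1403 CPM (1334 to 1474, 1580 UMIs). Ptp4a1 (ENSMUSG00000026064), a prenylated protein tyrosine phosphatase also known as PRL-1, stood at 1078 CPM (1018 to 1140, 1214 UMIs). Stk17b (ENSMUSG00000026094), a kinase of the death-associated protein kinase family also called DRAK2, was at 506 CPM (465 to 549, 570 UMIs). Arhgef4 (ENSMUSG00000037509), an exchange factor for small GTPases, was at 252 CPM (224 to 283, 284 UMIs). Rgs20 (ENSMUSG00000002459), an RGS protein for Gi-class alpha subunits, was near the limit of detection with 21 UMIs, or 18.6 CPM (11.5 to 28.5). No 2 neighbours in this order had overlapping counting intervals. Among the 409 genes with at least 100 UMIs over both libraries, Map4k4 ranked 55th, Mapkapk2 118th, Ptp4a1 152nd, Stk17b 260th and Arhgef4 319th in vehicle level, and Rgs20 fell under that minimum.

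**Figure D1:**
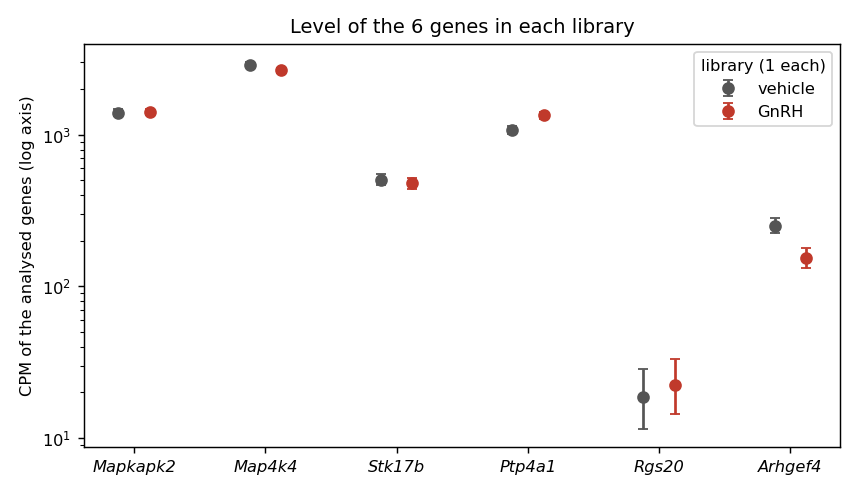
Level of each member (CPM of the analysed genes, log axis) in the vehicle (grey) and GnRH (red) library, 1 library each, with exact 95% Poisson intervals that cover counting error only. Ptp4a1 lies higher and Arhgef4 and Map4k4 lower in the GnRH library, with intervals that do not overlap, while the points of Mapkapk2 coincide at 1403 and 1412 CPM. Relative to the median gene the log2 ratio of Map4k4 was -0.03 (-0.10 to 0.04).

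Against this basal order, the question was which of these genes differed in transcript level after 40 min of GnRH. Across the 409 genes the log2 ratio of GnRH to vehicle had a median of -0.09 (interquartile range -0.19 to 0.00), and 104 genes (25.4%) lay above 0. A member at -0.09 was therefore at the middle of the genes.

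Map4k4 and Stk17b lay within the interquartile range of the genes, and Mapkapk2 just above it. Mapkapk2 had 1580 UMIs in each library, 1403 CPM in vehicle and 1412 CPM (1343 to 1484) in GnRH. Its log2 ratio was 0.01 (-0.09 to 0.11), or 0.10 (0.00 to 0.21) after subtraction of the median, and ranked 98th from the highest. Map4k4 had 2983 UMIs or 2666 CPM (2572 to 2764) in the GnRH library against 2908 CPM in vehicle, a log2 ratio of -0.13 (-0.20 to -0.05). The level intervals did not overlap and that of the ratio lay below 0, but relative to the median gene Map4k4 was at -0.03 (-0.10 to 0.04). Stk17b had 535 UMIs or 478 CPM (439 to 521) in GnRH against 506 CPM, a log2 ratio of -0.08 (-0.25 to 0.09), or 0.01 relative to the median. The intervals of Map4k4 and Stk17b thus took in the median gene, and that of Mapkapk2 began just above it.

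Ptp4a1 was the member with the highest ratio among those with 100 UMIs. Its UMIs numbered 1214 after vehicle and 1502 after GnRH, that is 1078 and 1343 CPM (1276 to 1412), and the intervals did not overlap. The ratio was 1.25, with a log2 value of 0.32 (0.21 to 0.43), or 0.41 (0.30 to 0.52) relative to the median gene, and ranked 24th of 409. The phosphatase thus stood in the upper tail of the genes, well below Btg2 at a log2 ratio of 5.01.

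Arhgef4 was the member with the lowest ratio. Its UMIs numbered 284 in vehicle and 173 in GnRH, or 252 and 155 CPM (132 to 179), again with intervals that did not overlap. The ratio was 0.613 (0.505 to 0.743), with a log2 value of -0.71 (-0.99 to -0.43), or -0.61 (-0.89 to -0.33) relative to the median gene. Arhgef4 ranked 406th of 409 from the highest, so only 3 genes had a lower ratio. Rgs20, the other G-protein regulator, had 21 UMIs in vehicle and 25 in GnRH, or 18.6 and 22.3 CPM (14.5 to 33.0). Its log2 ratio of 0.26 had an interval from -0.63 to 1.17, so at this depth a difference of the size seen for Ptp4a1 could not be told from 0. The interval ended short of the Arhgef4 ratio of -0.71.

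By size alone, 0 of the 5 members with at least 100 UMIs were 2-fold or more higher in the GnRH library (1.22% of the 409 genes were) and 0 were 2-fold or more lower (0% of the genes). At 1.5-fold, 0 members were higher, beside 2.44% of the genes, and 1 member, Arhgef4, was lower, beside 1.71% of the genes or 7 genes in all.

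**Figure D2:**
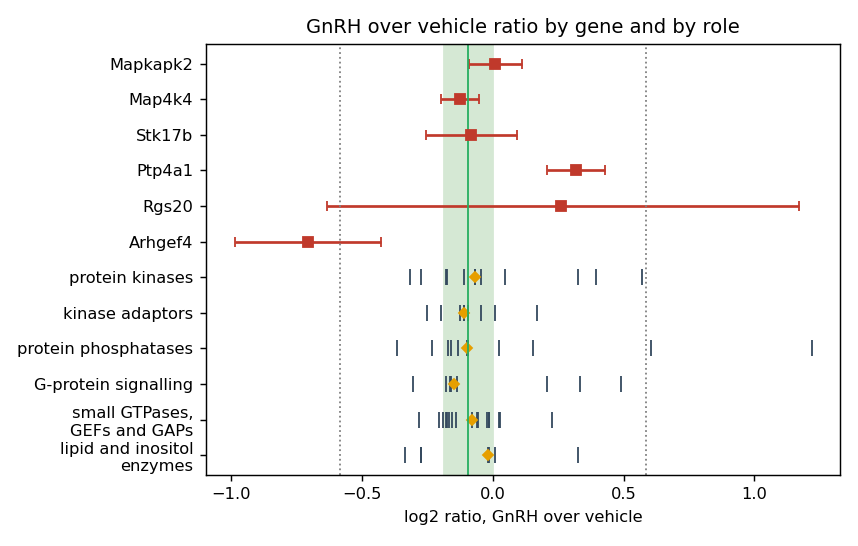
Log2 ratio of GnRH to vehicle for each member (red squares with exact 95% counting intervals) and for the other listed genes of each role with at least 100 UMIs (dark ticks, with an orange diamond at the median of the role). The green line and band are the median and interquartile range of all 409 genes, the dotted lines mark 1.5-fold, and Arhgef4 at -0.71 lies below every tick.

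Other genes with the same roles were taken from lists by function. Of 118 such genes, 105 are among those analysed, 64 had at least 100 UMIs and 11 had none. Their median log2 ratio was -0.10, beside -0.09 for all 409 genes, with 18 of the 64 above 0. At 1.5-fold, 2 of the 64 were higher in the GnRH library, beside 2.44% of all 409 genes, and 0 were lower, beside 1.71%. With TMM or median-of-ratios scaling of the libraries 3 were higher, the third being Nuak2, a kinase of the AMPK-related family, at a log2 ratio of 0.57 (1.48-fold) on library totals. Nuak2 was named after its value was seen. The other 2 were in the phosphatase list with Ptp4a1. Ptprn, a receptor-type phosphatase-like protein of secretory granules that lacks catalytic activity, had a log2 ratio of 1.22 (2.33-fold), and Ppp1r15b, which brings protein phosphatase 1 to the translation factor eIF2-alpha, had 0.61 (1.52-fold).

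Within roles, 12 other protein kinases had a median of -0.07 and 9 kinase adaptors or regulatory subunits one of -0.11. The most abundant of these were Clk1, a kinase of splicing factors (0.39), Stk16 (-0.18), Cab39, a scaffold of the LKB1 complex (-0.13), and Ccnt2, a cyclin of the elongation factor P-TEFb (-0.25). The 11 other phosphatases and regulators had a median of -0.10, with Ilkap at -0.13 and Tns1 at -0.16. The 8 other genes of heterotrimeric G-protein signalling had a median of -0.15 and ranged from -0.30 to 0.49. The highest, named after its value was seen, was Pdcl3, a phosducin-like chaperone partner, with an interval of 0.41 to 0.57. Their most abundant genes, Ramp1, a partner of calcitonin-family receptors, and Pde6d, a carrier of prenylated proteins, were both at -0.16. The 17 other small GTPases and their regulators had a median of -0.08 and none below -0.28, so Arhgef4 stood outside their range. Of these, Smap1 and Agap1, both GTPase-activating proteins for Arf GTPases, were at -0.14 and -0.18. The 7 lipid and inositol enzymes had a median of -0.02, with Etnk2 at 0.32 and Inpp4a, which removes phosphate from phosphoinositides, at -0.33.

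The share of cells with at least 1 UMI followed the levels. Map4k4 was seen in 73.7% of cells after vehicle (95% Clopper-Pearson interval 71.7 to 75.6) and in 71.996% after GnRH (69.9 to 74.01). Mapkapk2 was seen in 49.8% (47.6 to 52.1) and 52.2% (49.97 to 54.5), and Stk17b in 22.4% (20.6 to 24.3) and 22.2% (20.3 to 24.1). For these kinases the unthinned intervals of the libraries overlapped.

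Ptp4a1 was seen in 43.4% of cells after vehicle (41.2 to 45.6) and in 50.9% after GnRH (48.6 to 53.2), and Arhgef4 in 12.5% (11.1 to 14.03) and 8.68% (7.45 to 10.04). Since GnRH-treated cells were slightly deeper, each cell was also thinned to 300 UMIs, which left 1773 vehicle-treated and 1781 GnRH-treated cells and dropped 219 and 108 shallower ones. At equal depth Ptp4a1 was seen in 28.2% (26.1 to 30.4) and 32.7% (30.5 to 34.9) of cells, and Arhgef4 in 6.71% (5.59 to 7.98) and 4.10% (3.23 to 5.13). Both genes had non-overlapping intervals in the same order at 300 UMIs. At 200 UMIs the Arhgef4 intervals overlapped, with 4.39% (3.50 to 5.41) in vehicle and 3.16% (2.41 to 4.07) in GnRH. At 300 UMIs Map4k4 was seen in 56.1% of vehicle-treated and 51.9% of GnRH-treated cells, in the direction of its lower CPM. The thinned totals include Btg2, which made up 0.09% of vehicle and 3.00% of GnRH UMIs. More Btg2 lowers the thinned shares of other genes as it lowers their CPM, so the shares are not separate from the ratios.

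Rgs20 was seen in 20 vehicle-treated cells, or 1.00% (0.614 to 1.55), and 24 GnRH-treated cells, or 1.27% (0.816 to 1.88). No cell type that lacks these genes was present to measure free RNA, so each share includes whatever background the droplets carried, and a share as low as that of Rgs20 cannot be told apart from it.

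Counts per cell were low for all members. Map4k4 averaged 1.64 UMIs in vehicle-treated and 1.58 in GnRH-treated cells, with a maximum of 10 and 11, and 23.0% and 22.3% of cells had 3 or more. Ptp4a1 averaged 0.609 and 0.795 UMIs, and its cells with 3 or more UMIs went from 71 (3.56%) to 123 (6.51%) while those with exactly 1 made up 30.5% and 31.4%. Cells with 2 UMIs of Ptp4a1 made up 9.39% and 13.0%, so most of the difference lay in cells with at least 2. For Arhgef4, cells with exactly 1 UMI numbered 219 in vehicle and 155 in GnRH. In the same order, 25 and 9 cells had 2 UMIs, and 5 and 0 had 3 or more.

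**Figure D3:**
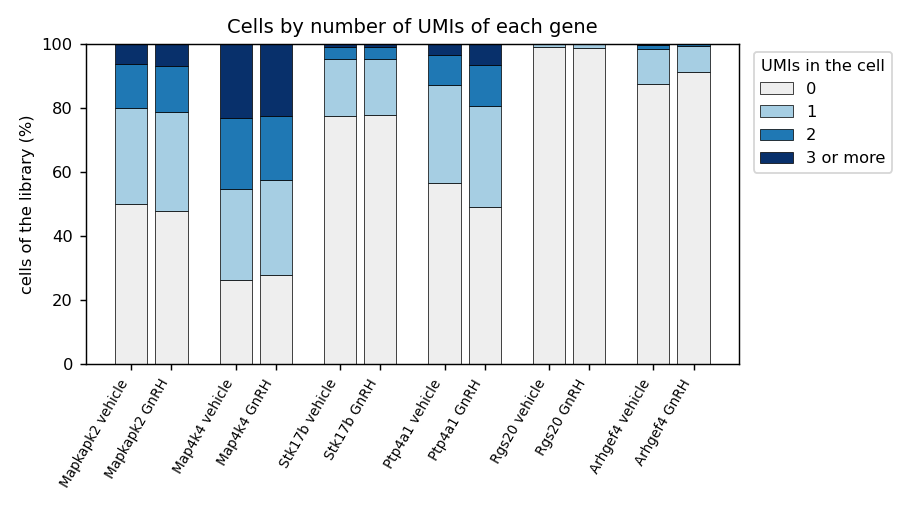
Percentage of cells of each library that held 0, 1, 2 or at least 3 UMIs of each member, with 1 bar per gene and library. Map4k4 has the smallest share of empty cells, Ptp4a1 gains darker segments in the GnRH library (3 or more UMIs in 6.51% of cells against 3.56%), and Rgs20 is at 0 in about 99% of cells.

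The variance of each gene across cells was set against the Poisson expectation given each cell's UMI total, where 1 means counting noise alone. Stk17b (1.22 in vehicle, 1.24 in GnRH) and Map4k4 (1.19 and 1.28) exceeded this the most, beside a median of 1.07 in each library over the genes with at least 0.1 UMIs per cell. Mapkapk2 had 1.15 and 1.14, Ptp4a1 1.05 and 1.12, Arhgef4 1.11 and 1.00, and Rgs20 1.08 and 1.07. None of the members reached 1.5, a value that 20 genes in vehicle and 23 in GnRH exceeded.

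Over the 15 pairs, the correlation of depth-corrected counts across cells ran from -0.07 to 0.06 in vehicle and from -0.04 to 0.07 in GnRH, with medians of 0.003 and 0.009. The highest pairs were Map4k4 and Stk17b in vehicle (0.06) and Mapkapk2 and Map4k4 in GnRH (0.07). With so few UMIs per cell, values near 0 do not show that the members varied independently. Cells of 1 library share its processing and depth, so these correlations are descriptions. Stk17b alone among the members had 2 closest genes in vehicle-treated cells that reached 0.1 in both libraries. These were Nucks1, a chromatin-associated nuclear protein (0.21 in both), and Hjurp, the chaperone that loads the centromeric histone CENP-A (0.21 in vehicle, 0.14 in GnRH). With cells thinned to 300 UMIs the values for Nucks1 were 0.15 and 0.11 and those for Hjurp 0.099 and 0.085. For the other members the highest correlation with any gene in vehicle-treated cells was 0.10 for Mapkapk2, 0.14 for Map4k4, 0.07 for Ptp4a1, 0.16 for Rgs20 and 0.08 for Arhgef4.

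Stk17b is itself on the study's list of G2/M genes, and Ptp4a1 on its list of M-phase genes, so each was compared with the other analysed genes of the lists. The mean of the 5 other G2/M genes, which include Nucks1 and Hjurp, correlated with Stk17b at 0.24 across vehicle-treated and 0.20 across GnRH-treated cells, and at 0.13 and 0.10 with cells thinned to 300 UMIs. Without Nucks1 the values were 0.19 and 0.14, and without Hjurp and Nucks1 they were 0.080 and 0.078. The M/G1 list gave 0.18 and 0.19 (0.13 and 0.09 after thinning), falling to 0.072 and 0.082 without Nucks1, and the G1/S list gave -0.07 and -0.10. Ptp4a1 correlated with the mean of the 4 other M-phase genes at -0.04 and -0.06, and at -0.01 and -0.02 after thinning. Between the lowest and highest of 4 equal bins of cells ranked by these M-phase genes, Ptp4a1 went from 1179 to 967 CPM in vehicle (0.821-fold, 0.698 to 0.964) and from 1410 to 1210.4 CPM in GnRH (0.858-fold, 0.740 to 0.995). The middle bins held 1036 and 1136 CPM in vehicle and 1433 and 1319 CPM in GnRH, so the bins were not graded. The median cell of the lowest and highest bin had 535.5 and 577 UMIs in vehicle and 564 and 571.5 in GnRH.

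Cells of each library were then ranked by the G2/M list, with the member itself left out, and divided into 4 bins of equal size. Of the 133 genes on that list 6 were used, or 5 for Stk17b, among them Nucks1 and Hjurp. The bins were not redone without Nucks1 and Hjurp. Stk17b in vehicle-treated cells went from 243 CPM (188 to 309) in the lowest bin through 394 and 479 to 853 CPM (753 to 962) in the highest, a ratio of 3.51 (2.67 to 4.67). In GnRH-treated cells it went from 303 CPM (240 to 377) through 317 and 474 to 766 CPM (672 to 870), a ratio of 2.53 (1.95 to 3.30). The order of the bins was therefore the same in both libraries. The median cell of the lowest bin had 506.5 UMIs and of the highest 614 in vehicle, and 532 and 629 in GnRH, so deeper cells moved with the score, and the bins themselves were not compared at equal depth. Map4k4 differed less between the lowest and highest bin, 1.20-fold (1.09 to 1.32) in vehicle and 1.22-fold (1.098 to 1.35) in GnRH. Its bins held 2687, 2663, 3006 and 3218 CPM in vehicle, with the second below the first. In GnRH they held 2362, 2505, 2874 and 2877 CPM.

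Arhgef4 ran the other way in vehicle-treated cells, from 321 CPM in the lowest bin to 160 CPM in the highest, a ratio of 0.497 (0.344 to 0.711). In GnRH-treated cells it was 200 and 133 CPM, with a ratio of 0.667 whose interval reached 1.02. Mapkapk2 was 1.09-fold (0.948 to 1.26) in vehicle and 1.16-fold (1.004 to 1.33) in GnRH between the lowest and highest bins. For Ptp4a1 the values were 1.07-fold (0.911 to 1.26) and 1.03-fold (0.889 to 1.19), with both intervals across 1. Within each G2/M bin the libraries were compared again. The Ptp4a1 log2 ratio was 0.36, 0.27, 0.33 and 0.30 from the lowest to the highest bin, with all 4 intervals above 0. The Arhgef4 ratio was -0.69, -0.97 and -0.84 in the lower 3 bins, and -0.26 with an interval of -0.89 to 0.36 in the highest. In bins by the M-phase list the Ptp4a1 ratio was 0.26, 0.47, 0.22 and 0.32, with an interval of -0.005 to 0.44 in the third bin. The Arhgef4 ratio there was -0.68, -0.43, -0.72 and -1.05, with an interval that crossed 0 in the second bin (-0.97 to 0.10). The bin with the Arhgef4 ratio nearest 0 thus differed between the lists, while every bin was above 0 for Ptp4a1 and below 0 for Arhgef4. Both lists divided the same cells of 1 library per treatment, so the bins are not separate observations.

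**Figure D4:**
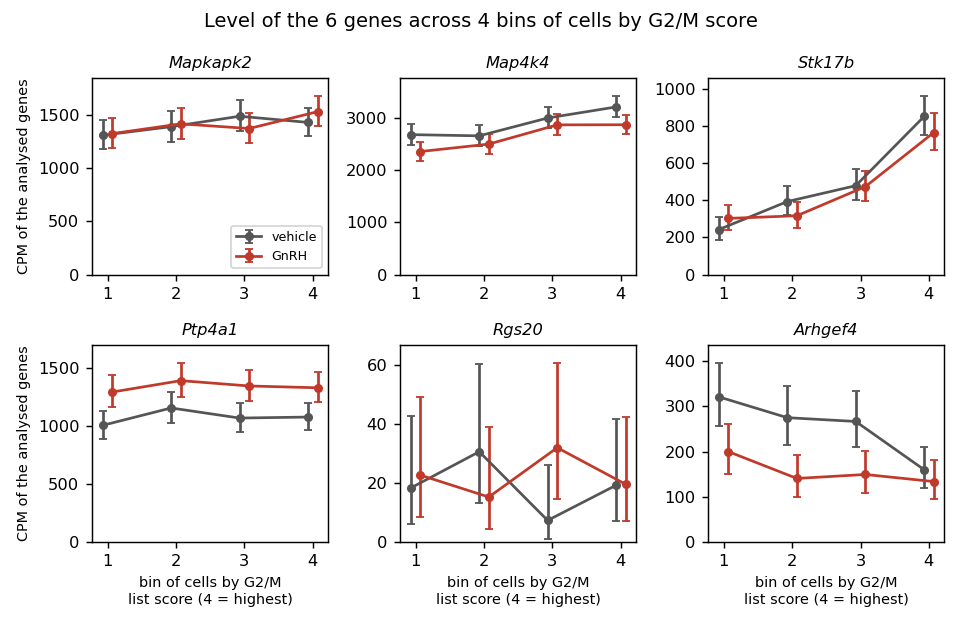
Level of each member (CPM of the analysed genes, linear axes from 0) in 4 bins of cells, in the vehicle (grey) and GnRH (red) library, with exact 95% Poisson intervals. Cells were ranked by the 6 genes used of the 133 on the study's G2/M list, without the member. Stk17b climbs from 243 to 853 CPM in vehicle and from 303 to 766 CPM in GnRH, and the GnRH points of Ptp4a1 lie above the vehicle points in all 4 bins.

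GnRH-treated cells differed widely in Btg2, and the members were compared between 4 equal bins of these cells ranked by Btg2, and Btg2 was taken off each cell's total. The median cell had 2 Btg2 UMIs in the lowest bin and 34 in the highest, and 503 and 516 other UMIs. Map4k4 went from 2293 CPM in the lowest bin through 2816 and 2886 to 2955 CPM in the highest, a ratio of 1.29 (1.15 to 1.44). Mapkapk2 went from 1275 CPM through 1481 and 1528 to 1520 CPM, a ratio of 1.19 (1.03 to 1.39). Both kinases were thus lower in the bin with least Btg2 than in the other 3, which lay close together.

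Stk17b went from 535 CPM through 599 and 483 to 349 CPM, a ratio of 0.653 (0.494 to 0.859), so it was lower in the cells with most Btg2. Ptp4a1 (1356 and 1435 CPM, 1.06-fold, 0.911 to 1.23) and Arhgef4 (165 and 161 CPM, 0.977-fold, 0.620 to 1.54) were not separable between these bins at this depth. Rgs20 had 10 UMIs in the lowest and 4 in the highest bin, too few to compare.

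**Figure D5:**
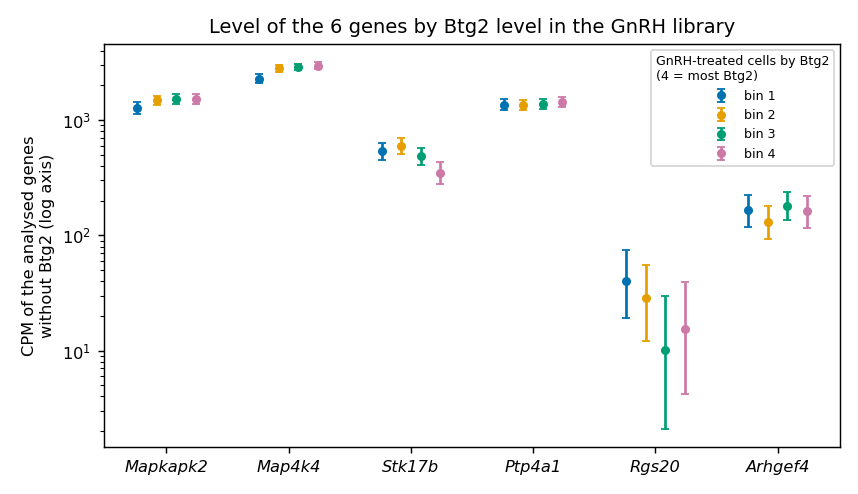
Level of each member (CPM of the analysed genes without Btg2, log axis) in 4 bins of the GnRH-treated cells ranked by Btg2, from least (bin 1) to most (bin 4), with exact 95% Poisson intervals. Map4k4 is higher in bin 4 (2955 CPM) than in bin 1 (2293 CPM), and Stk17b is lower (349 against 535 CPM).

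The gene models bear on how far a count can be assigned. In GENCODE M21 (GRCm38) all members lie on chromosome 1, and whether counting used strand is not given in the sources used here. Map4k4 (39900913 to 40026310, plus strand) and Stk17b (53755506 to 53785224, minus strand) overlap no other gene, and the overlaps of Mapkapk2 (131053700 to 131097826, minus strand) share no exon base. Ptp4a1 (30940302 to 30949309, minus strand) shares 3923 of its 5541 exon bases with a second gene model of the same name that is not in the series' gene list. Arhgef4 (34678188 to 34813309, plus strand) shares 685 of 9861 exon bases with the antisense gene Gm38336, which had 15 and 17 UMIs, 171 with a second same-strand model of its own name that is not in the series' gene list, and 91 with the opposite-strand gene Fam168b. Fam168b had 2315 UMIs in vehicle and 2085 in GnRH, a log2 ratio of -0.14, beside -0.71 for Arhgef4. Rgs20 (4909576 to 5070285, minus strand) shares 127 of 4239 exon bases with Atp6v1h and 125 with the pseudogene Gm17101, both on the opposite strand. Whether any of its few UMIs came from those genes depends on whether counting used strand, and was not tested.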

How the data were processed

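Droplet single-cell RNA-seq was performed on LβT2 cells, with 1 vehicle and 1 GnRH library. The deposited values are raw UMI counts per gene and cell, which the authors made with Cell Ranger 1.3, and mm10 is the genome in the submitters' notes. The gene annotation used for counting is not given in the sources used here. Groups were taken from the sample labels, and 0 cell columns were unmatched. The first 1068 genes were analysed, and 1 incomplete row was left out. UMIs were summed over cells and divided by the library total.

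Exact 95% intervals were computed for levels (Poisson), shares (Clopper-Pearson) and ratios (conditional binomial) with Python 3.11.15, NumPy 2.4.6 and SciPy 1.17.1, and figures were drawn with matplotlib 3.10.9. They cover counting error only. No pseudocount was added, no doublet caller was run and no p-value was computed, since cells of 1 library are not replicates. Correlations used Pearson residuals given each cell's total, and scripts were tested on simulated data. Positions came from GENCODE M21 and promoters from RefSeq, which matched 4 of 6 members.

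Named besides the members were listed genes at 1.5-fold or more with at least 100 UMIs, the 2 other genes of each role most abundant in the vehicle library, correlated genes at 0.1 or more in both libraries, and Btg2. Some genes of the phase lists and of overlaps were also named, and the other genes of the phase lists are not reported here. The members and lists were chosen with earlier results of these data known. Alternatives covered the scaling, the cells kept, the depth and the count minimum.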

Additional observations from a re-analysis of the deposited data

How the results depend on the processing

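The ratios of Ptp4a1 and Arhgef4 kept their direction under all 8 settings (log2 0.28 to 0.41 and -0.74 to -0.61). Intervals were computed for the main setting only. The changes of scaling shifted all log2 ratios by the same amount, 0.04 to 0.09, and so could not have reversed either gene. The Map4k4 ratio ranged from -0.18 to -0.03, with -0.044 under median-of-ratios and -0.033 under TMM scaling. Mapkapk2 (-0.05 to 0.10), Stk17b (-0.09 to 0.01) and Rgs20 (-0.17 to 0.63) changed sign within their intervals. Leaving out the 5% of cells with most UMIs or cells under 300 UMIs moved no ratio out of its interval. No paired analysis was possible because only 1 library stood for each treatment and nothing was tested.

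Thinning to 300 UMIs gave shares (vehicle, GnRH) of 32.1% and 32.7% for Mapkapk2, 56.1% and 51.9% for Map4k4, 12.7% and 13.3% for Stk17b, 28.2% and 32.7% for Ptp4a1, 0.338% and 0.674% for Rgs20, and 6.71% and 4.10% for Arhgef4. Thinning to 200 UMIs gave 23.7% and 24.8%, 42.5% and 40.3%, 8.77% and 9.38%, 17.9% and 23.2%, 0.428% and 0.545%, and 4.39% and 3.16% in the same order. Against a plain Poisson expectation the variance was 1.299 and 1.27 for Mapkapk2, 1.51 and 1.56 for Map4k4, and 1.16 and 1.24 for Ptp4a1. After thinning it was 1.05 and 1.04 for Mapkapk2, 1.06 and 1.095 for Map4k4, and 1.06 in vehicle for Stk17b.

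With a minimum of 20 UMIs (and of 1 UMI), 9 (22) genes were 2-fold higher, 1 (14) 2-fold lower, 18 (34) 1.5-fold higher and 17 (40) 1.5-fold lower. Here a library at 0 was counted as 3 UMIs, so that its ratio is a bound, and genes with at most 3 UMIs in each library had no ratio. Of the listed signalling genes with a minimum of 1 UMI, 3 were 2-fold higher, 3 were 2-fold lower, 4 were 1.5-fold higher and 5 were 1.5-fold lower, with 1 at 1.5-fold lower for a minimum of 20. The number of genes with a ratio was not recorded at these minima. The counts are therefore not shares and do not compare the listed genes with all genes. TMM and median-of-ratios scaling each gave 3 listed genes at 1.5-fold higher. The correlation of Stk17b with the G2/M list was 0.13 and 0.10 after thinning. In alternatives chosen after seeing the data it was 0.19 and 0.14 without Nucks1, and 0.080 and 0.078 without Hjurp and Nucks1.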
